A study of Mus musculus with 18 samples.

Results

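Dbx2 encodes a homeodomain transcription factor, and Dbx1-derived preBötzinger complex neurons that carried its transcript were compared with those that did not. A neuron was called Dbx2-positive when its library held 10 or more Dbx2 fragments and Dbx2-negative otherwise. The neurons were thus chosen by their own Dbx2 count, so the Dbx2 values describe the groups and carry no test. The rule placed 9 of 17 neurons in the positive group and 8 in the negative group. All other genes were then compared between the groups.

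Dbx2 and its relative Dbx1 are expressed in dividing progenitors of the ventricular zone, at intermediate positions along the dorsal-ventral axis of the embryonic hindbrain and spinal cord. Dbx1 is extinguished as neurons leave the cell cycle, and Dbx2 has also been described in neural stem cells and astrocytes. Genes of progenitors, radial glia and astrocytes are therefore set beside genes of neurons below.

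All neurons came from pups of postnatal day 0 to 2, the offspring of Dbx1cre mice and Ai148 mice. The pups carry a Dbx1cre allele and a Cre-dependent GCaMP6f reporter. Background was C57Bl/6J for the Ai148 parent and mixed C57Bl/6J and CD1 for the Dbx1cre parent. Cre marks every cell with a Dbx1 history, and the recorded cells were further picked for rhythmic, inspiratory fluorescence. After whole-cell recording the cytoplasm was drawn into the pipette, and its polyadenylated RNA was amplified and sequenced (Patch-Seq). No treatment, deletion or control genotype entered the study, and a neuron's own RNA and RNA of adjoining cells drawn in with it cannot be told apart in such a sample. Fewer slices than neurons were used, and the neurons that shared one are not named in the labels, so p-values measure the spread between neurons.

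The Dbx2-positive group held 3 Type-1, 5 Type-2 and the single Unknown neuron, and the negative group 4 Type-1 and 4 Type-2 neurons. Type-1 neurons fire after a delay and Type-2 neurons show a voltage sag. No association of Dbx2 status with electrical type was detected (Fisher's exact test, two-sided p = 1.0, 16 neurons). Positive neurons came from postnatal day 0 (3 neurons), 1 (2 neurons) and 2 (4 neurons), negative ones from day 0 (2 neurons), 1 (4 neurons) and 2 (2 neurons). Libraries held 2280477 to 13762335 fragments and 10434 to 18174 genes with a fragment. Positive libraries were deeper, with 9526000 ± 2057000 fragments (SD, n = 9) against 6444000 ± 3569000 (SD, n = 8), and held 14180 ± 1944 genes against 12080 ± 1405. Of 5 library measures these had the lowest exact permutation p-values, p = 0.0443 and p = 0.0208 (adjusted p = 0.111 and p = 0.104). Mitochondrial share, the share of the 100 most abundant genes and postnatal day gave exact permutation p = 0.365, p = 0.408 and p = 1.0. Pan-neuronal transcripts were present throughout, since Snap25 and Tubb3, a synaptic vesicle fusion protein and a neuronal tubulin, had fragments in all 17 neurons. The progenitor gene Dbx1 itself had 0 fragments in every library.

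The 9 positive neurons spanned a wide range of Dbx2. The positive neurons nearest to the threshold were Neurons 3 and 13, well above it with 99 and 158 fragments or 3.07 and 7.2 FPKM (fragments scaled to gene length and library total). The other 7 held 754 to 1636 fragments. Neurons 18, 5, 11, 9, 8, 7 and 15 were at 23.4, 30.3, 31.2, 36.5, 38.6, 41 and 41.4 FPKM. No neuron held 1 to 9 fragments, and all 8 negative libraries held 0. A count of 0 allows up to 3 fragments, or 0.0628 to 0.379 FPKM at these depths, which covers counting error only. At the share of the lowest positive neuron, even the shallowest library (Neuron 12) would have held 24.3 fragments.

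Dbx2 lies on the minus strand of GRCm38 at chr15:95623563-95655960 in the GENCODE annotation. The 250 bases before the RefSeq start of Dbx2 are shown here because the gene defines the groups, and lie within the longer GENCODE gene. They stand beside the same stretch of Bcan, a leading astrocyte gene of the comparison, and of Pcsk2, the gene with the lowest p-value. Sequences are from RefSeq (GRCm38.p6), written 5′ to 3′ on each gene's strand, with capitals marking TTGGC, the core bound by NFI factors, and ATTGTT, a SOX core, each searched on both strands (as GCCAA and AACAAT too).
Dbx2, chr15:95654772-95655021, minus strand: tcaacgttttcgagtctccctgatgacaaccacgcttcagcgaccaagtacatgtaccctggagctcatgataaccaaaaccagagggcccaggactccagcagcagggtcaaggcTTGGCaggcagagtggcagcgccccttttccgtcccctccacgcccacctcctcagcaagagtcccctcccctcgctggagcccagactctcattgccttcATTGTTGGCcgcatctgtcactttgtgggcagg
Bcan, chr3:88000357-88000606, minus strand: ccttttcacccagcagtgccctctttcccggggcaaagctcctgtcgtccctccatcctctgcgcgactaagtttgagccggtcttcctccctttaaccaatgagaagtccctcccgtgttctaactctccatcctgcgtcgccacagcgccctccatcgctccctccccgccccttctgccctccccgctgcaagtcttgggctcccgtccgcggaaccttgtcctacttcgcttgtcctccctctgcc
Pcsk2, chr2:143545883-143546132, plus strand: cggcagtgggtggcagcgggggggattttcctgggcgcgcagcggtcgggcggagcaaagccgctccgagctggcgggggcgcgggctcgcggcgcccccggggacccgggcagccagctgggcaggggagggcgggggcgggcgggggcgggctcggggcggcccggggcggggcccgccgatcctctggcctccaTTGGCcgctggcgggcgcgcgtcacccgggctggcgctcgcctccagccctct
The Dbx2 stretch held 2 NFI cores and 1 SOX core, and the second NFI core overlapped the SOX core by 2 bases. Bcan held neither, and Pcsk2 held 1 NFI core. Among 27025 genes with a RefSeq stretch of this length, 41.9% held the NFI core and 9.65% the SOX core. Of 23 matched astrocyte genes, 10 (43.5%) held the NFI core and 0 the SOX core. Of 11 radial glia genes 7 (63.6%) held the NFI core and 0 the SOX core, and of 9 pan-neuronal genes 7 (77.8%) and 1 (11.1%). These letter matches describe the sequences only.

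No gene passed correction by exact permutation or by edgeR without covariates when all genes but Dbx2 were compared. On log2(FPKM + 1), 12256 genes with 10 or more fragments in at least 5 neurons were compared by exact permutation, two-sided, over the 24310 ways to choose 9 of 17 neurons, and 0 reached an adjusted p under 0.05 (lowest adjusted p = 0.504). At an unadjusted p under 0.05, 684 genes (5.58%) were higher in Dbx2-positive and 261 (2.13%) in Dbx2-negative neurons. Without Neuron 8, the Unknown neuron, 450 genes were higher in positive neurons, 3.88% of the 11602 then tested. The median difference over tested genes was 0.15 toward the positive, deeper group, and list medians below are read against it. The quasi-likelihood test of edgeR on 32627 genes called 0 genes (adjusted p below 0.01 with a log2 fold change beyond 1.5 in either direction), with 7076 genes at an unadjusted p under 0.05 (lowest adjusted p = 0.0957). On the 12256 genes of the permutation test, edgeR gave 347 genes at an unadjusted p under 0.05 and again called 0 (lowest adjusted p = 0.308). With postnatal day as a factor, edgeR called 10 genes, 5 higher and 5 lower in positive neurons (lowest edgeR adjusted p = 5.97e-05). DESeq2 called 276 genes, 198 higher and 78 lower in positive neurons, of which 68 were detected widely enough for the permutation test, and limma-voom called 9. At an adjusted p under 0.05 with no fold threshold, DESeq2 gave 365 genes and limma-voom 3271, against 0 for edgeR without covariates and the permutation test. Of 340 list genes, DESeq2 called 7 higher in positive neurons (Irx5, Hes5, Aurkb, Gjb6, Ntsr2, Gpr17 and Hey1). It called 2 lower, 1 among peptides and their receptors and 1 among synaptic receptors. Over all features it called 276 of the 16795 genes with an adjusted p, and nothing is read from the list calls. The p-values given for single genes from here on are unadjusted exact permutation p-values (two-sided, n = 9 and n = 8), and none of these genes passed correction over all genes.

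Many genes of astrocytes had higher levels in Dbx2-positive neurons. Of 28 listed genes 25 were tested, and 12 were higher in the positive group at an unadjusted p under 0.05 and 0 lower, against 5.58% of all tested genes. Their median difference was 1.83 against 0.15 over all tested genes, and 23 of 25 differences were above 0. The list was chosen with earlier results of these data known, so these counts describe the list and carry no test. Aldh1l1, Mlc1 and Ntsr2 reached 10 fragments in at most 1 negative neuron, so that they were tested mainly through the group where they were high and are given without a p. Their place in the count, fixed in part by the filter, is no support, and the other 9 of the 12 reached 10 fragments in 2 or more negative neurons, and Gfap, Gjb6 and Slc6a9 were not tested. The astrocyte score, the mean log2(FPKM + 1) of the 28 genes, was 3.80 ± 1.46 (SD, n = 9) in Dbx2-positive and 2.21 ± 0.75 (SD, n = 8) in Dbx2-negative neurons. Neurons 15, 8, 11, 5, 3, 9 and 7 had the 7 highest scores, 5.56, 5.13, 4.61, 4.30, 4.18, 3.85 and 3.65, and all were Dbx2-positive. Negative neurons reached at most 3.34 (Neuron 6). The positive Neurons 13 and 18 were exceptions, with scores of 1.77, inside the range of the negative group, and 1.18, below it (1.30 to 3.34).

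**Figure D1:**
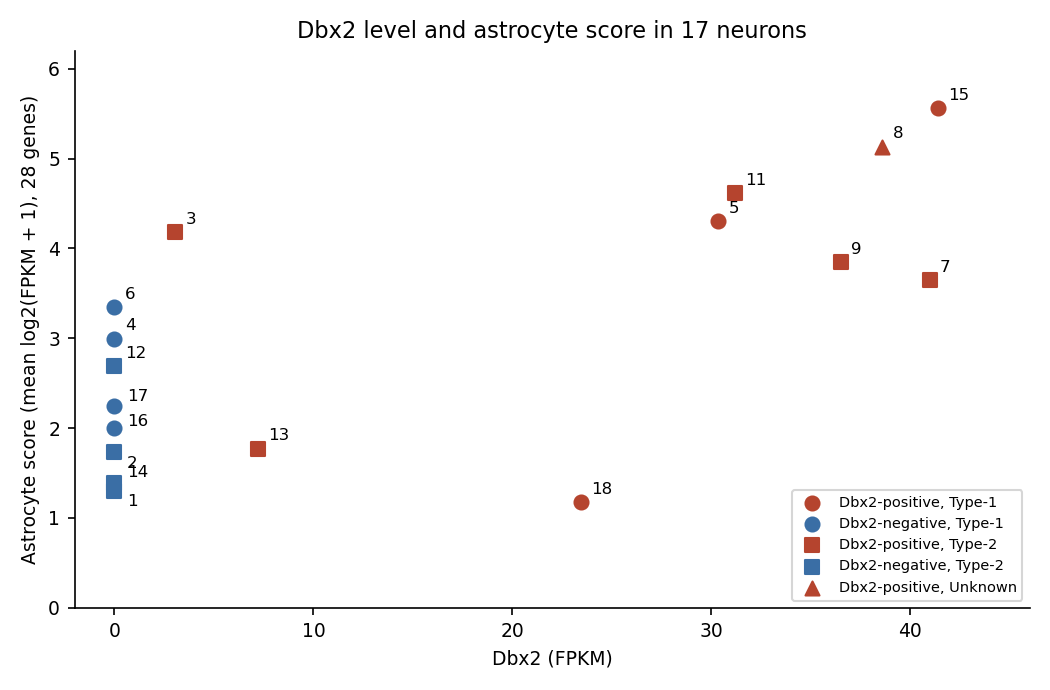
Dbx2 level (x axis, FPKM) against astrocyte score (y axis, mean log2(FPKM + 1) of 28 genes) for each of the 17 numbered neurons, coloured by Dbx2 status and shaped by electrical type. Of the 9 Dbx2-positive neurons 7 lie above every negative neuron, while Neuron 13 lies among the negative ones and Neuron 18 just below them.

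Sparcl1 and Bcan had the lowest p-values of the astrocyte genes. Sparcl1, an astrocyte-secreted protein that promotes synapse formation, had a lowest, median and highest level of 43.8, 211 and 953 FPKM in the Dbx2-positive neurons and 0, 46.3 and 183 FPKM in the negative ones (difference 3.11, p = 0.00271). Bcan (brevican), a proteoglycan of the extracellular matrix, had 0, 31.3 and 58.3 FPKM in the Dbx2-positive neurons and 0, 0.549 and 15.2 FPKM in the negative ones (difference 3.23, p = 0.00288). Both genes overlapped between the groups, since the positive Neuron 13 held less Sparcl1 than the negative Neurons 2, 4, 6, 14 and 17, Neuron 18 held no Bcan and the negative Neuron 16 held 15.2 FPKM.

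The other astrocyte genes higher in positive neurons included secreted proteins, enzymes and transporters. Aldh1l1, a folate enzyme used to mark astrocytes, was at 16.2, 25.6, 11, 36.6, 0.0604, 29.4, 0, 62 and 0 FPKM in Neurons 3, 5, 7, 8, 9, 11, 13, 15 and 18, and in the negative group only Neurons 12 (3.3 FPKM) and 6 (0.235 FPKM) had fragments (difference 2.88). Medians were 62 against 0 FPKM for Agt (angiotensinogen, difference 3.55, p = 0.0156) and 24.9 against 0 FPKM for Mlc1 (a membrane protein of astrocyte end-feet, difference 2.93). The negative Neuron 4 alone held Mlc1 at the level of the positive neurons (36.4 FPKM). The bicarbonate transporter Slc4a4 (difference 1.98, p = 0.0198), the gap junction protein Gja1 (difference 2.15, p = 0.0242) and the water channel Aqp4 (difference 2.09, p = 0.0445) were likewise higher, with medians of 8.28 against 0.604, 12.2 against 0.202 and 17.8 against 0.266 FPKM. Each overlapped between the groups, and the highest Aqp4 level, 34.3 FPKM, was in the negative Neuron 6. Omitting a single neuron took Aqp4 past an unadjusted p of 0.05 in 13 of 17 cases, Fgfr3 in 11 and Ttyh1 in 5. Aldoc, a glycolytic enzyme, and Ttyh1, a chloride channel family member, were detected in all 17 neurons and were higher in the positive group (medians 500 against 187 and 26.8 against 14.3 FPKM, difference 1.40, p = 0.0181 and difference 1.18, p = 0.0293). The receptors Fgfr3 (difference 1.31, p = 0.0475) and Ntsr2 completed the 12, and Ntsr2 passed the filter only through its 5 positive neurons.

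Other astrocyte genes did not differ beyond the spread between neurons. The glutamate transporters Slc1a3 and Slc1a2 had medians of 31.6 against 3.94 and 5.74 against 1.63 FPKM (p = 0.0634 and p = 0.216). The lipoprotein Apoe, which microglia also express, had medians of 2253 against 373 FPKM (p = 0.106). Clu, a chaperone, and Atp1b2, a sodium pump subunit, had differences of −0.18 and −0.74 (p = 0.867 and p = 0.143). A further 7 tested genes, among them the glutamine synthetase Glul, the GABA transporter Slc6a11 and the gliogenic factor Nfia, had differences of 0.76 (Glul) to 2.48 (Cldn10), with p-values from 0.0656 (Cldn10) to 0.326 (Glul). Gfap, the intermediate filament of astrocytes, was at 0 in 5 of 9 positive and 7 of 8 negative neurons. Of the defining markers, Slc1a3 was at 0 in 1 positive and 2 negative neurons, Aqp4 in 2 and 4, Aldh1l1 in 2 and 6, and Gja1 in 2 and 1. Library depth moved with Dbx2 status too. When shares under that of 10 fragments in the shallowest library were set to 0 in every neuron, 11 of the 25 genes were higher at the same threshold, against 4.33% of all tested genes, and genes per neuron differed by less than their spread (8483 against 7614, exact permutation p = 0.173). This floor was added after seeing the data, and the 25 genes again include Aldh1l1, Mlc1 and Ntsr2. The part of depth in the astrocyte differences was not tested.

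Genes of radial glia and neural stem cells were taken next. Of 17 listed genes 12 were tested, 5 were higher in the positive group and 0 lower, against 5.58% of all tested genes, and their median difference was 1.63. Leaving out 1 neuron lowered that count to 2 (Neuron 8, 11 or 15) or to 3 (Neuron 1, 2, 5, 7, 9, 12 or 17). The list score was 2.69 ± 1.08 (SD, n = 9) in Dbx2-positive and 1.39 ± 0.58 (SD, n = 8) in Dbx2-negative neurons, and 6 positive neurons exceeded every negative one. Hopx, a homeodomain-only protein of radial glia and astrocytes, was at 14.2, 180.3, 118, 122, 94.3, 265, 0, 315 and 44.3 FPKM in Neurons 3, 5, 7, 8, 9, 11, 13, 15 and 18, and at 0 in every negative neuron but Neuron 16 (122 FPKM). Neuron 13 fell among the negative neurons and Neuron 16 among the positive ones (difference 5.10). Id1, an inhibitor of differentiation factors, had fragments in all 9 positive neurons (6.16 to 118 FPKM) and in 3 of 8 negative ones (Neurons 6, 16 and 17, 28.1 to 41.4 FPKM, difference 2.64, p = 0.0181). Its relative Id3 had medians of 27.7 against 0 FPKM (difference 2.85, p = 0.029). Fabp7, the brain lipid binding protein, was abundant in both groups, with 154, 2706 and 6040 FPKM in the Dbx2-positive neurons and 88.2, 374 and 2070 FPKM in the negative ones (difference 1.93, p = 0.0476). Fabp7 and Id3 lost such a p in 12 and 10 of 17 omissions. Hes5, a target of Notch signalling, had fragments in 5 positive neurons and 0 negative ones. It therefore passed the filter only through the group where it was high, and Hopx nearly so, with 10 fragments in 8 positive and 1 negative neurons, so that the count of 5 is no support for a difference of the list. Sox2 and Sox9, factors of neural stem cells and glia, had medians of 4.45 against 0.0353 and 14.8 against 3.04 FPKM (p = 0.104 and p = 0.146), and the filament gene Nes was at 0 in 6 positive and 7 negative neurons.

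Progenitor domain factors, the class to which Dbx2 belongs, were mostly unmeasurable. Of 24 listed factors 16 had a fragment in any neuron and 4 were tested. The list score was 0.43 ± 0.26 (SD, n = 9) in Dbx2-positive and 0.10 ± 0.07 (SD, n = 8) in Dbx2-negative neurons. In it 7 positive neurons exceeded every negative one, and the median difference of the 4 tested factors was 1.33. Nkx6-2, which patterns ventral progenitors and persists in some glia and neurons, was the only one of the 4 past an unadjusted p under 0.05, against 5.58% of all tested genes. It was at 16.2, 9.79, 51.2, 2.37, 12, 32.6, 12.1 and 7.41 FPKM in Neurons 3, 5, 7, 8, 9, 11, 13 and 15 and absent from the positive Neuron 18. Among negative neurons only Neurons 1, 14 and 16 held it, at 21.9, 1.64 and 0.318 FPKM (difference 2.60, p = 0.00753). Nkx2-2 and Olig2, factors of the ventral zone and of the oligodendrocyte lineage, each reached 10 fragments in 4 of 9 positive and 1 of 8 negative neurons (p = 0.0824 and p = 0.135). Pax6, of progenitors and some neurons, was highest in the negative Neuron 6 at 25.2 FPKM (p = 0.95). The proneural genes Neurog1, Neurog2 and Ptf1a had 0 fragments in all 17 libraries. Of 10 cell cycle genes 6 were tested by permutation, with 0 past the threshold in each direction and a median difference of 0.16, and the mitotic kinase gene Aurkb, which DESeq2 called, was not among those tested.

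Of 14 hedgehog genes 4 were tested, and 1 of them, the receptor Ptch1, was higher in the positive group (medians 1.88 against 0.0259 FPKM, difference 1.17, p = 0.0412). The ligand Shh and the target Gli1 had 0 fragments. Of 19 Notch genes 12 were tested and 2 were higher in positive neurons, the target Hey1, which passed the filter only through its 6 positive neurons, and the inhibitor Numb (medians 7.66 against 0 FPKM, difference 1.75, p = 0.034). Against the 5.58% of all tested genes nothing is read from these small counts, and Ptch1 and Numb each lost an unadjusted p under 0.05 in 11 of 17 omissions of a neuron. The other Notch and hedgehog genes tested did not pass in either direction.

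**Figure D2:**
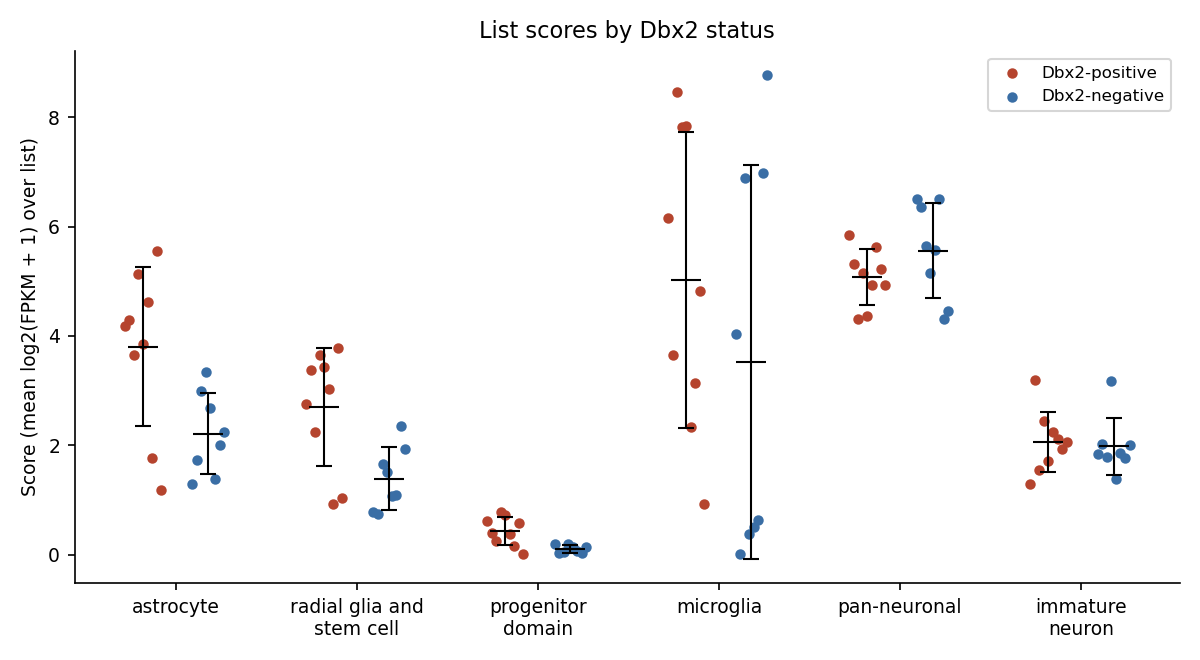
Score of 6 gene lists (y axis, mean log2(FPKM + 1) over the list) in the 9 Dbx2-positive and 8 Dbx2-negative neurons, with 1 point per neuron and bars for mean ± SD. Astrocyte and radial glia scores lie higher in most positive neurons, while microglial scores, with means of 5.02 and 3.53, spread widely in both groups.

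The microglial, oligodendrocyte lineage and blood lists also had median differences above the 0.15 of all tested genes, and Mag was the single gene of theirs at an unadjusted p under 0.05. All 14 microglial genes were tested and 0 passed in either direction, with 14 differences above 0 and a median difference of 1.45. Mean microglial scores were 5.02 in the 9 positive and 3.53 in the 8 negative neurons, with ranges of 0.93 to 8.47 in positive and 0.00 to 8.78 in negative neurons, a difference of 1.50 beside 1.59 for astrocytes. The highest score of all, 8.78, was that of the negative Neuron 17. Summed over the list, microglial FPKM ran from 128 to 11250 in positive and 0.0214 to 11700 in negative neurons. Of 12 oligodendrocyte lineage genes 5 were tested, with a median difference of 1.82. Mag, a myelin protein, reached 10 fragments in 5 positive and 0 negative neurons, so that it passed the filter only through the group where it was high. Olig1 and Mbp had medians of 45.4 against 0 and 7.41 against 2.26 FPKM (p = 0.059 and p = 0.103), and Neuron 3 held most of the Mbp (783 FPKM). The oligodendrocyte score was 1.93 ± 1.34 (SD, n = 9) in Dbx2-positive and 0.72 ± 0.67 (SD, n = 8) in Dbx2-negative neurons, and 5 positive neurons exceeded every negative one. Of 5 blood genes 4 were tested and 0 passed, with a median difference of 1.38. Blood scores ran from 0.00 to 8.28 in positive and 0.00 to 5.02 in negative neurons, and 4 positive neurons (5, 8, 11 and 15) exceeded every negative one. None of 13 vascular genes was detected widely enough to be tested, with scores of 0.01 to 0.59 in positive and 0.01 to 0.64 in negative neurons, and 1 of 6 ependymal genes was tested and did not pass. The part of these cells in the astrocyte and radial glia differences was not tested.

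Neurons 13 and 18 held Dbx2 with fewer astrocyte transcripts than the other positive neurons. Of 28 astrocyte genes 11 and 8 reached 10 fragments, against 24 to 28 in the other 7, and their summed astrocyte FPKM were 494 and 349. Negative neurons held 9 to 21 such genes and summed FPKM of 349 to 2399. In Neuron 13, with 7.2 FPKM of Dbx2, the astrocyte genes Slc1a3, Aqp4, Aldh1l1, Gja1, Mlc1 and Agt were at 0, while Sparcl1 was at 43.8 and Bcan at 14.5 FPKM. In Neuron 18, with 23.4 FPKM of Dbx2, Aqp4, Aldh1l1, Gja1, Mlc1, Agt and Bcan were at 0 and Slc1a3 was at 9.44 FPKM. Radial glia scores of both were low, 0.92 and 1.04, against 2.24 to 3.77 in the other 7 positive neurons. Pan-neuronal scores were 5.63 and 4.92. Neuron 13 held the inhibitory genes Gad2 (81 FPKM) and Slc6a5 (39.8 FPKM) and no Slc17a6, and Neuron 18 held Slc17a6 (21.3 FPKM), little Gad2 (2.09 FPKM) and no Slc6a5. Conversely, the negative Neurons 6, 4 and 12 had astrocyte scores of 3.34, 3.00 and 2.69 with 0 Dbx2 fragments.

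**Figure D3:**
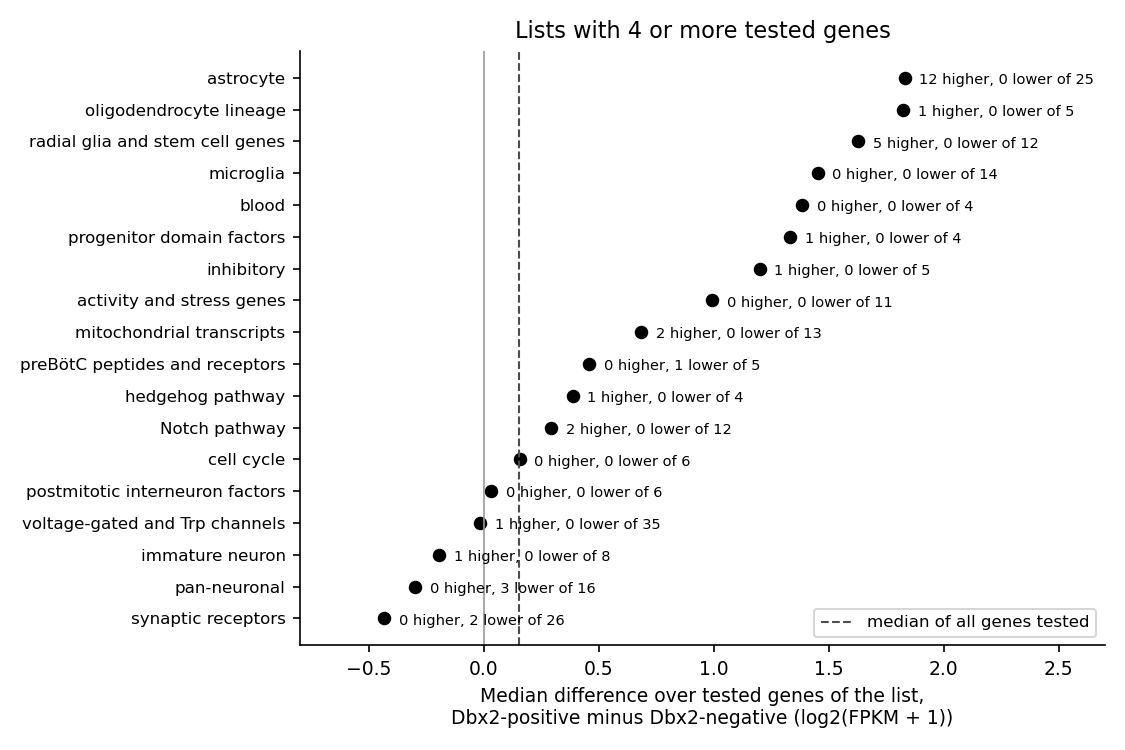
Median difference in log2(FPKM + 1) between Dbx2-positive and Dbx2-negative neurons (x axis) over the tested genes of each list with 4 or more tested genes (y axis), labelled with the number of genes past an unadjusted exact permutation p under 0.05. Astrocyte genes lie at 1.83 and synaptic receptors at −0.43, against 0.15 for all tested genes (dashed line).

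Several neuronal transcripts were less abundant in Dbx2-positive neurons. Of 16 pan-neuronal genes, all tested, 0 were higher and 3 were lower in the positive group, against 2.13% of all tested genes, and the median difference was −0.30. Syt1, the calcium sensor of vesicle release, had a lowest, median and highest level of 2.08, 15.3 and 104 FPKM in the Dbx2-positive neurons and 20.9, 68.6 and 139 FPKM in the negative ones (difference −2.13, p = 0.00745). Syp, a synaptic vesicle protein, had medians of 12.9 against 48.5 FPKM (difference −1.57, p = 0.0153; −0.21 within Type-1, exact p = 0.886, and −2.52 within Type-2, exact p = 0.00794), and Nefm, a neurofilament subunit, 0.796 against 14.5 FPKM (difference −2.38, p = 0.00679). All 3 overlapped between the groups, and Nefm was at its highest in the positive Neuron 3 (48 FPKM). Other neuronal genes had medians of 169 against 142 FPKM for Snap25, 278 against 315 for Tubb3, 181 against 192 for Stmn2 and 879 against 654 for Gap43 (p = 0.449, p = 0.52, p = 0.58 and p = 0.401). The pan-neuronal score was 5.08 ± 0.51 (SD, n = 9) in Dbx2-positive and 5.56 ± 0.88 (SD, n = 8) in Dbx2-negative neurons. Its difference was 0.26 within Type-1 and −1.22 within Type-2, and that of Syt1 was 0.03 and −3.47.

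Among genes of immature neurons 1 differed at an unadjusted p under 0.05. Of 12 listed genes 8 were tested, of which 1 is 12.5% against 5.58% of all tested genes, and it was Sox11, a factor of newborn neurons, higher in the positive group, with 0, 8.45 and 31.1 FPKM in the Dbx2-positive neurons and 0, 0.379 and 2.53 FPKM in the negative ones (difference 2.38, p = 0.0016). Dcx, a microtubule protein of migrating neurons, had medians of 9.62 against 14.9 FPKM (p = 0.115). The list score was 2.06 ± 0.56 (SD, n = 9) in Dbx2-positive and 1.98 ± 0.52 (SD, n = 8) in Dbx2-negative neurons, and the sign of that difference turned without Neuron 5 (−0.061) or Neuron 12 (−0.0026).

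The lowest p-value over all tested genes was that of Pcsk2, a convertase that cleaves prohormones and proneuropeptides in secretory granules. It was at 2.28, 0.911, 0, 0.389, 1.96, 0.328, 0.36, 3.4 and 0.0136 FPKM in the positive Neurons 3, 5, 7, 8, 9, 11, 13, 15 and 18. In the negative Neurons 1, 2, 4, 6, 12, 14, 16 and 17 it was at 22.5, 12.9, 26.3, 15.7, 19.5, 30, 12.7 and 5.70 FPKM. The groups did not overlap, which held for 2 of 12256 tested genes (0.0163%). The other, chosen after its values were seen, was the predicted gene Gm14414, which was at 7.32 FPKM or more in positive and 7.28 FPKM or less in negative neurons. The mean log2(FPKM + 1) of Pcsk2 was 0.85 ± 0.78 against 4.13 ± 0.71 (SD), a difference of −3.27 with an exact p of 4.11e-05, the smallest the design allows (adjusted p = 0.504). The edgeR log2 fold change was −3.88 ± 1.06 (SE, adjusted p = 0.0957). Pcsk2 was lower in the positive neurons of Type-1 (difference −2.81) and of Type-2 (difference −3.59). The lack of overlap over all 17 neurons fixed this in advance, so no p is given for the types.

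Of the transmitter genes, Slc17a6 was lower and Slc6a5 higher in positive neurons at an unadjusted p under 0.05. Slc17a6, the vesicular glutamate transporter VGLUT2 of excitatory preBötC neurons, was at 5.99, 107, 0.451, 4.05, 9.15, 28.2, 0, 21.8 and 21.3 FPKM in Neurons 3, 5, 7, 8, 9, 11, 13, 15 and 18. In Neurons 1, 2, 4, 6, 12, 14, 16 and 17 it was at 162, 92.2, 19.9, 246, 129.5, 196, 44.8 and 89.1 FPKM. Neurons 3, 7, 8, 9 and 13 lay below every negative neuron, and Neuron 5 lay well within the negative range (difference −3.32, p = 0.00173). The edgeR log2 fold change was −2.28 ± 0.92 (SE, adjusted p = 0.122). The difference was −4.82 within Type-2 (exact p = 0.0159) and −0.84 within Type-1 (exact p = 0.571).

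Slc6a5, the glycine transporter GlyT2 of inhibitory neurons, reached 10 fragments in 7 of 9 positive and 2 of 8 negative neurons. Its lowest, median and highest levels were 0, 6.2 and 39.8 FPKM in the Dbx2-positive neurons and 0, 0 and 5.33 FPKM in the negative ones (difference 2.18, p = 0.0172). The glutamate decarboxylases Gad1 and Gad2, which make GABA, reached 10 fragments in 8 of 9 positive neurons each and in 1 and 3 of 8 negative ones. Their levels overlapped widely, and the highest Gad1 and Gad2 levels, 70.8 and 82.2 FPKM, were in the negative Neuron 2 (p = 0.115 and p = 0.312). Slc32a1, the vesicular GABA and glycine transporter, had medians of 1.14 against 0 FPKM (p = 0.603). Over the 5 inhibitory genes, all tested, 1 was higher in the positive group and 0 lower, against 5.58% of all tested genes, with a median difference of 1.20.

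**Figure D4:**
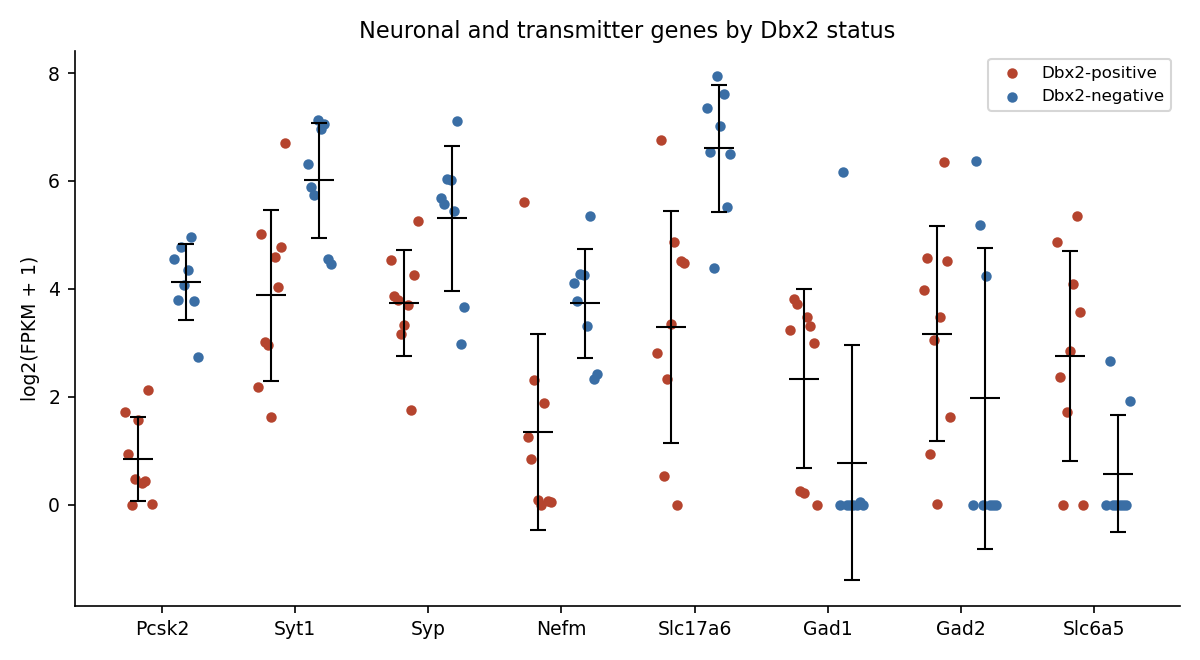
Level of 8 neuronal genes (y axis, log2(FPKM + 1)) in Dbx2-positive and Dbx2-negative neurons, with 1 point per neuron and bars for mean ± SD. The groups do not overlap for Pcsk2 (positive neurons up to 3.4 FPKM, negative ones from 5.70 FPKM) and overlap for the other 7 genes.

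Penk, the precursor of the enkephalins, had 0, 8.95 and 233 FPKM in the Dbx2-positive neurons and 14.7, 226 and 1634 FPKM in the negative ones (difference −4.02, p = 0.0115), and the groups overlapped. Sst, the precursor of somatostatin, had medians of 70 against 32.9 FPKM (p = 0.828). Of 30 synaptic receptor genes 26 were tested, 0 were higher and 2 lower in the positive group, against 2.13% of all tested genes, with a median difference of −0.43. These were Gria4, an AMPA receptor subunit (medians 11.9 against 46 FPKM, difference −1.93, p = 0.00703), and Glra2, a glycine receptor subunit (medians 0.116 against 12.5 FPKM, difference −1.98, p = 0.0498). Of 36 voltage-gated and Trp channel genes 35 were tested, and 1 passed (2.86%, under the 5.58% of all tested genes). It was the potassium channel Kcnc4 (medians 6.34 against 0 FPKM, difference 1.46, p = 0.0437). Among negative neurons Kcnc4 was highest in Neuron 17 (2.51 as log2(FPKM + 1), next 0.294), so it was tested mainly through the positive group. Among 27 postmitotic interneuron factors 6 were tested and 0 passed in either direction, with a median difference of 0.03. Of 15 activity and stress genes 11 were tested and 0 passed in either direction, with a median difference of 0.99. All 13 mitochondrial transcripts were tested and 2 (15.4%, against 5.58% of all tested genes) were higher in positive neurons, mt-Nd2 and mt-Nd4l, subunits of complex I (difference 1.08, p = 0.0485 and difference 0.81, p = 0.0491). They lost an unadjusted p under 0.05 in 14 and 12 of the 17 omissions of a single neuron, and Glra2 did so in 13.

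Ranked by edgeR p among genes found in at least 5 neurons of the higher group, the leading 10 genes higher in positive neurons were nearly absent from the negative group. This ranking and that of the other direction used the same contrast, so the differences are a description with no test. The genes were Cyp20a1, Arid5a, Diaph3, Tmem229a, Sall3, Arhgef26, Rbbp9, F3, Dtd2 and Castor1. Cyp20a1, a cytochrome P450 family member, reached 10 fragments in 8 of 9 positive neurons, with levels of 0.567 FPKM (Neuron 11) to 54.8 FPKM (Neuron 5), and had 0 fragments in Neuron 7 and in all negative neurons (difference 3.80). F3, the tissue factor of coagulation, which astrocytes express, was at 13.4 (Neuron 8) to 39.9 FPKM (Neuron 9) in 6 positive neurons and at 0 in Neurons 5, 13 and 18 and in all negative neurons (difference 3.01). Sall3, a zinc finger factor, and Tmem229a, a membrane protein, had medians of 3.87 against 0 and 5.42 against 0 FPKM (difference 1.82 and difference 2.28). Dtd2, a tRNA deacylase, was present in Neuron 18 (39 FPKM) and Neuron 13 (14.1 FPKM) as well, and was absent from Neuron 7 (difference 3.89). For these 10 genes the filter was passed through the positive group alone, and each had an edgeR adjusted p of 0.0957 in the fit of all genes, against 0.308 or more in the filtered fit.

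The 10 leading genes in the other direction were Col6a1, Adamtsl3, Egfem1, Pcsk2, Tut1, Usp11, Esyt1, Cpeb1, Dcbld2 and St6galnac3. Usp11, a deubiquitinase, was detected in all 17 neurons, with 1.45, 10.5 and 30.2 FPKM in the Dbx2-positive neurons and 17.5, 50 and 134 FPKM in the negative ones (difference −2.25). Its groups overlapped where the positive Neurons 15 (30.2 FPKM) and 7 met the lowest negative Neurons 2 (17.5 FPKM) and 16 (21.3 FPKM). Col6a1, a collagen chain, was at most 0.251 FPKM in positive neurons and had a median of 14.1 FPKM in negative ones, of which Neurons 1 and 17 held 0 (difference −3.06). Adamtsl3, a matrix protein, was at most 0.0473 FPKM in positive neurons and reached 10 fragments in 5 negative ones (difference −1.70). All but Pcsk2 and Usp11 entered the test mainly through the negative group.

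Genes found in the same neurons as Dbx2 were few. Detection at 10 or more fragments matched that of Dbx2 in 16 of 17 neurons for 4 genes, in 15 for 36 genes and in all 17 for 0 genes. The 4 genes were Cyp20a1, Cdkn2aip, Rhoq and Gm10362, and of the 36 tied at 15 neurons Hopx had the largest absolute difference in mean log2(FPKM + 1). This choice by detection fixes the direction of their difference, so no test is given. Cdkn2aip, which binds the tumour suppressor ARF, reached 10 fragments in all 9 positive neurons and in the negative Neuron 14 (difference 2.66). Rhoq, a small GTPase, did so in all 9 positive neurons and in the negative Neuron 17 (difference 2.63). Gm10362 levels overlapped (difference 0.67), and its fragment counts lay near the detection limit of 10. On the chromosome, Nell2, a secreted neuronal protein whose gene lies 95004 bases from Dbx2 on the same strand, was lower in positive neurons (medians 4.03 against 16.8 FPKM, difference −1.76, p = 0.0417). It lost that p in 12 of 17 omissions of a neuron and differed by −0.53 within Type-1 (exact p = 0.686) and −2.64 within Type-2. The other annotated neighbours, 1700129L04Rik and Gm24668 on the Nell2 side and Gm8843, Gm49169 and Gm6961 on the other, each reached 10 fragments in at most 1 neuron.

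**Figure D5:**
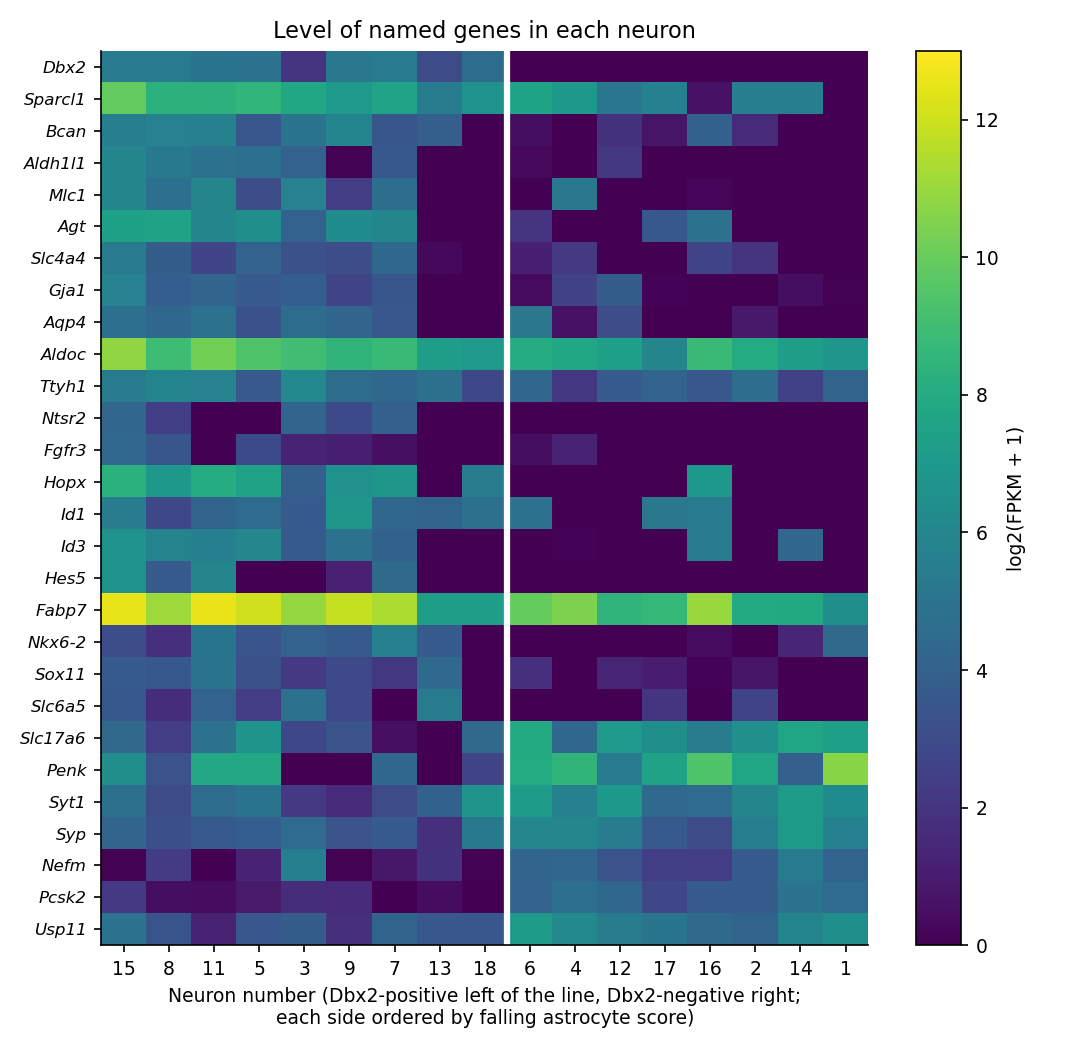
Level of 28 named genes (rows, log2(FPKM + 1) as colour, dark for low) in each of the 17 neurons (columns), with Dbx2-positive neurons left of the white line and each side ordered by falling astrocyte score. Most astrocyte genes are dark in Neurons 13 and 18 at the right of the positive block, while Pcsk2 is dark across all 9 positive neurons.

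Within the 9 positive neurons the level of Dbx2 was set beside the scores of 6 lists, as a description over neurons that share depth and amplification. Pearson's r with log2(FPKM + 1) of Dbx2 was 0.35 for the astrocyte score (Spearman's rho 0.52), 0.45 for radial glia (rho 0.65), 0.13 for progenitor factors (rho 0.30) and 0.18 for microglia (rho 0.50). It was −0.75 for pan-neuronal genes (rho −0.57) and 0.36 for immature neurons (rho 0.00). Without the 2 neurons farthest from the median of Dbx2, the values were 0.76, 0.67, 0.67, 0.83, −0.23 and −0.35 in the same order, which moved each value.

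The contrast was also taken within each electrical type. The astrocyte score was higher in positive neurons by 1.03 among the 7 Type-1 and by 1.83 among the 9 Type-2 neurons, and the radial glia score by 0.87 and 1.56. The pan-neuronal score was higher in positive neurons by 0.26 within Type-1 and lower by a difference of −1.22 within Type-2, against −0.49 over all 17 neurons. Syt1 differed by 0.03 within Type-1 (exact p = 0.971) and −3.47 within Type-2 (exact p = 0.00794). Bcan differed by 1.71 (exact p = 0.371) and 3.94 (exact p = 0.00794), and Sox11 by 1.58 (exact p = 0.257) and 2.79 (exact p = 0.00794). A test of the difference between the types, permuting Dbx2 status within each type, found 0 of 12256 genes at an adjusted p under 0.05 (lowest adjusted p = 0.463), with 780 genes (6.36%) at an unadjusted p under 0.05.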

How the data were processed

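Cytoplasm of single Dbx1-derived preBötC neurons was sequenced after SMART-Seq HT amplification, which attaches no molecular identifiers. The authors trimmed reads with bbduk and cutadapt 3.2, aligned them to GRCm38 with STAR 2.7.7a and counted uniquely aligned fragments per gene with featureCounts. They deposited fragment counts, FPKM values and gene lengths. Whether counting used strand is not given in the sources used here. A Type-2 library set aside by the authors was left out here too, which gave 17 neurons, and 0 columns of other samples were read.

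Neurons were split by 10 or more Dbx2 fragments. The groups, the 21 gene lists and the tests were chosen with earlier results of these data known. The deposited FPKM were taken as log2(FPKM + 1), and genes with 10 or more fragments in at least 5 of 17 neurons were compared by exact two-sided permutation tests with Benjamini-Hochberg adjustment (Python 3.11.15, numpy 2.4.6, pandas 2.3.3, scipy 1.17.1, matplotlib 3.10.9). The deposited counts of all genes were also fitted with edgeR 4.0.16 (quasi-likelihood, TMM normalization), DESeq2 1.42.0 and limma 3.58.1 in R 4.3.3. P-values treat neurons as independent. A list score is the mean log2(FPKM + 1) over all its genes. Named genes were list members, the 10 genes of lowest edgeR p in each direction found in at least 5 neurons of the higher group, the 3 nearest genes on each side of Dbx2 and the 5 whose detection best matched that of Dbx2 (ties by the larger absolute difference). Each procedure was tested on simulated data. Alternatives were other pseudocounts, CPM, filters, normalizations and tools, type or postnatal day as a term, each type alone, and omission of each neuron. A common depth floor was added after seeing the data. The values of 1 list gene are not reported here.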

Additional observations from a re-analysis of the deposited data

Results flagged for a closer look

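Among 185 combinations of a group and a measure, 31 held a neuron whose gap to its nearest neighbour was large against the range of its group by Dixon's criterion. Groups of normally distributed values meet it in about 1 in 20 cases. That rate does not apply to values mostly at 0, so the 31 are not read against it. All values are log2(FPKM + 1), except the score. Many came from genes at or near 0 in the rest of the group.

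In the Dbx2-positive group, Neuron 18 stood lowest for Bcan (0) and Clu (0), where the next neurons were at 3.48 and 4.13. Neuron 3 stood highest for Nefm (5.62, next 2.32) and Dcbld2 (0.482). Neuron 5 stood highest for Col6a1 (0.323) and Adamtsl3 (0.0667), and Neuron 8 for Egfem1 (0.425) and Tut1 (0.350). Neuron 7 alone lacked Dtd2 (0, next 3.69).

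In the Dbx2-negative group, Neuron 6 had the highest immature neuron score (3.18, next 2.02), Pax6 (4.71) and Numb (2.90). Neuron 16 held Hopx (6.94, next 0), with traces of Mag (0.0836) and Tmem229a (0.0664). Neuron 1 held Nkx6-2 (4.52, next 1.40) and a trace of Diaph3 (0.0462). Neuron 17 stood highest for Nkx2-2 (0.437), Olig2 (2.65), Kcnc4 (2.51), Arhgef26 (0.0206), Castor1 (0.0651) and Rhoq (3.76, next 0.0424) and lowest for Gria4 (4.19, next 5.22). Neuron 12 stood highest for Aldh1l1 (2.11) and Rbbp9 (1.20), and Neuron 4 for Fgfr3 (1.26) and Mlc1 (5.22, next 0.231). Neuron 2 held Gad1 (6.17, next 0.0452), and Neuron 14 held Dtd2 (1.06) and Cdkn2aip (3.75, next 0.283).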

How the results depend on the processing

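The count called by edgeR (0) rose to 276 with DESeq2, 9 with limma-voom and 10 with postnatal day as a factor. It stayed at 0 with a low-count filter (lowest adjusted p = 0.308), other size factors, type as a term and each neuron left out. Genes higher in positive neurons at an unadjusted p under 0.05 numbered 450 without the Unknown neuron and 450 to 918 over all omissions of 1 neuron. Radial glia genes among them numbered 2 without the Unknown neuron and 2 to 5 over the omissions, and astrocyte genes 8 to 17. The progenitor score difference was 0.67 with a pseudocount of 0.1 and 0.0977 with 10, against 0.33 with 1. The pan-neuronal score difference was 0.26 in Type-1 neurons alone and −1.22 in Type-2 neurons alone, and Syt1 differed by 0.0326 in Type-1 neurons alone. The immature neuron score difference ran from −0.061 to 0.25 over the omissions and turned without Neuron 5 (−0.061) or Neuron 12 (−0.0026). For these changes the cause was not tested. The astrocyte score difference stayed above 0 in every alternative run, at 1.37 to 1.92 over the omissions. Of 57 named genes with an unadjusted p under 0.05, 43 to 55 kept such a p when 1 neuron was left out, 7 within Type-1 alone and 32 within Type-2 alone. Many of these genes were chosen on this contrast or passed the filter through 1 group, so their kept direction is no sign of stability. With 7 to 9 neurons per type, a p that misses the threshold says little. No paired analysis was possible because the labels do not name the slice or animal of each neuron. Zero counts at these depths cannot show absence below 0.0628 to 0.379 FPKM for a gene as long as Dbx2.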
